A study of Fragaria vesca with 8 samples.

Results

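Fruits of the woodland strawberry *F. vesca* overexpressing *FvMYB46* were compared directly with fruits overexpressing *FvVND4c*. All 4 overexpression libraries of the series entered this comparison, 2 with each construct, out of 8 libraries in all. The remaining 4 libraries, 2 from the empty vector of each experiment, gave the level of every gene without a construct. All groups were fruit of the white-fruited "Yellow Wonder" strawberry, whose flesh had been injected with agrobacterium around the change from green to white, and each was sampled 7 days after infiltration. The *FvVND4c* fruits received *35S:FvVND4c* and the *FvMYB46* fruits received *35S:FvMYB46*, both in the binary vector pGWB5, while the empty-vector groups, recorded as wild type, were infiltrated with agrobacterium carrying the vector alone. Infiltration was thus common to all groups, the genes were driven by the CaMV 35S promoter in transiently transformed flesh and not in a stable line, and at least 5 fruits were taken per treatment. The labels list 2 libraries per group where the methods state 3 biological replicates. The sources do not say how fruits were assigned to libraries, so p-values measure only library-to-library spread, which may be technical.

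VND proteins are NAC transcription factors that, in *Arabidopsis*, switch on the formation of xylem vessel elements, cells that lay down a thick secondary cell wall (SCW) of cellulose, xylan and lignin and then die. MYB46, an R2R3-MYB factor, acts below the NAC switches in *Arabidopsis* and turns on genes for the same wall polymers. The study treated *FvMYB46* as a candidate factor downstream of *FvVND4c*, and the direct comparison shows which transcripts stood at different levels when the fruits carried one factor or the other. The genes in the count files carry only the identifiers of the genome annotation v4.0.a2, and 0 of 34009 identifiers matched the gene table at hand. For that reason no gene is given a name or a role, the transcripts of *FvVND4c* and *FvMYB46* themselves were not located among the identifiers, and the fruit was not checked against tissue markers. Reads of an introduced coding sequence and of the plant's own copy would in any case be counted together.

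The 4 overexpression libraries held 9765362 to 11792067 counts and the 4 empty-vector libraries 11089689 to 12845942, the *FvVND4c* overexpression replicate 2 being the shallowest. Counts were found for 21923 to 22402 genes in the libraries other than *FvMYB46* overexpression, and for 23336 and 23199 genes in the *FvMYB46* libraries. Levels are given as CPM, counts scaled to a common library total. A zero in a library allows a level of up to 3 counts, here 0.240 to 0.327 CPM, a limit that takes in counting error alone. Replicate libraries correlated at 0.984 to 0.992 over log CPM, and no pair agreed within sampling noise, as the chi-square statistic per degree of freedom lay between 2.44 and 16.5. The FvMYB46 empty-vector pair stood furthest apart, at 16.5, and the FvVND4c overexpression pair followed at 7.57. Each of the 4 groups therefore entered as 2 separate samples.

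More genes were higher in the *FvMYB46* fruits than in the *FvVND4c* fruits. Of 18766 genes with enough counts for the test, 1786 were differentially expressed (9.52%), of which 1187 were higher with *FvMYB46* (6.33%) and 599 were higher with *FvVND4c* (3.19%). Genes were called where the quasi-likelihood test of edgeR, fitted to the 8 libraries together, gave a p below 0.05 after Benjamini-Hochberg adjustment and the log2 difference exceeded 1 in size. Differences were large in both directions. The median log2 difference was 1.93 among the genes higher with *FvMYB46* and -1.67 among those higher with *FvVND4c*, against 0.03 over all genes tested. A difference over 4 on the log2 scale, with groups without counts set to 3 counts, was found for 183 genes higher with *FvMYB46* (15.4%) and for 98 genes higher with *FvVND4c* (16.4%), and over 6 for 45 (3.79%) and 37 (6.18%), while 281 of all tested genes (1.5%) exceeded 4 in either direction. The groups did not overlap in any called gene, but over all tested genes both *FvMYB46* libraries also lay above both *FvVND4c* libraries in 32.6% and below them in 28.3%. Near the fold threshold, 168 genes with an adjusted p under 0.05 lay between 1 and 1.1 on the log2 scale and were called, and 178 lay between 0.9 and 1 and were not.

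**Figure D1:**
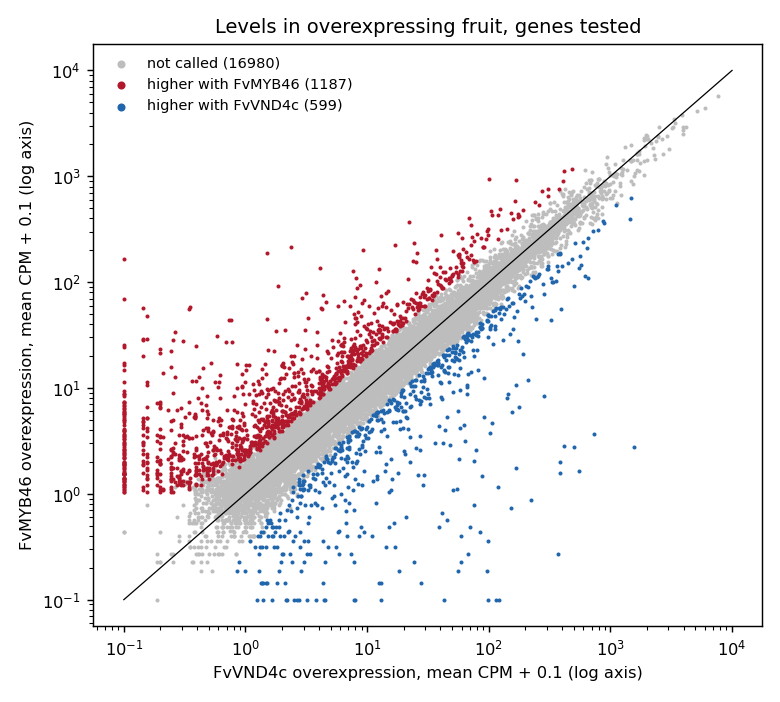
Mean level of each tested gene with *FvVND4c* (x axis) and with *FvMYB46* (y axis) in CPM plus 0.1, both axes logarithmic, with the line of equal levels. The 1187 genes higher with *FvMYB46* (red) include a column at the left edge with no count with *FvVND4c*, and the 599 genes higher with *FvVND4c* (blue) reach further into high levels.

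The libraries that carried these genes can be seen in the share of all counts they took. The 1187 genes higher with *FvMYB46* made up 4.41% and 4.48% of the counts in the *FvMYB46* libraries, 1.31% and 1.32% in the *FvVND4c* libraries, and, among the empty-vector libraries, 1.38% and 1.37% in the *FvVND4c* and 1.11% and 1.03% in the *FvMYB46* experiment. As a group these transcripts were thus close to the empty-vector share in the *FvVND4c* fruits. The 599 genes higher with *FvVND4c* took 4.44% and 4.54% of the counts in the *FvVND4c* libraries and 1.37% in each *FvMYB46* library. With the empty vector they took 2.14% and 2.2% in the *FvVND4c* experiment and 2.33% and 2.47% in the *FvMYB46* experiment, which lies between the constructs. The genes were chosen from the same overexpression libraries, so these shares describe the lists and are no test of them.

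Both lists held genes that were low without a construct, the *FvMYB46* list more so. The median level of the 1187 genes was 7.10 CPM with *FvMYB46*, 1.55 CPM with *FvVND4c*, and 1.32 and 1.52 CPM with the empty vectors of the *FvMYB46* and *FvVND4c* experiments. Under 1 CPM were 492 of them with *FvVND4c* (41.4%) and 524 with the empty vector of the *FvMYB46* experiment (44.1%), but only 10 with *FvMYB46*. The median level of the 599 genes was 19.7 CPM with *FvVND4c* and 3.87 CPM with *FvMYB46*, beside 5.16 and 4.91 CPM with the empty vectors of the *FvVND4c* and *FvMYB46* experiments. All genes tested had medians of 15.8 to 16.6 CPM in the 4 groups. By the mean over the 4 overexpression libraries, 12.7% of 1066 genes under 1 CPM and 10.5% of 6344 genes between 1 and 10 CPM were higher with *FvMYB46*, against 3.55% of 9008 genes between 10 and 100 CPM and 2.9% of 2348 genes at 100 CPM or above. The share higher with *FvVND4c* stayed between 2.82% and 3.67% across these levels. Among genes at 100 CPM or above the lists were of like size, 68 genes higher with *FvMYB46* and 74 higher with *FvVND4c*. The count filter lets in genes with counts in 1 group alone, so the low levels can hold genes tested only through the group where they are high. With at least 10 counts in every library, 562 genes were higher with *FvMYB46* and 394 higher with *FvVND4c*.

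Since each construct had its own empty-vector group, the levels of both empty vectors were set beside every difference. In the direct comparison itself the construct and the experiment cannot be told apart. The empty-vector groups, which share no library with that comparison, differed in 420 of the 18766 genes (2.24%), of which 116 were higher (0.618%) and 304 were lower (1.62%) in the *FvMYB46* experiment. These counts depend on single libraries, as the number higher was 53 without FvVND4c control replicate 1 and 274 without FvMYB46 control replicate 2, and the number lower was 131 without FvVND4c control replicate 2 and 602 without FvMYB46 control replicate 1. Without FvVND4c control replicate 2, 58 were higher, and without FvVND4c control replicate 1, 151 were lower. Of the 1786 genes that differed between the overexpressing fruits, 121 also differed between the empty vectors (6.77% of the 1786, 28.8% of the 420). Only 37 did so in the direction of the direct difference, and 84 differed in the opposite direction. Leaving out 1 library at a time, the share of called genes that also differed between the empty vectors ran from 3.59% without FvVND4c control replicate 2 and 3.87% without FvVND4c control replicate 1 to 9.75% without FvMYB46 control replicate 1.

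Among the 1187 genes higher with *FvMYB46*, the empty vectors were called apart for 82 (6.91%), 16 of them higher and 66 lower in the *FvMYB46* experiment. Their median empty-vector difference was -0.04 on the log2 scale, and the median size of that difference was 0.472, against 0.195 for all genes tested. An empty-vector difference as large as the direct difference and of the same sign was found for 17 of them (1.43%) and for 16.6% of all genes tested, which unlike these were not chosen for a direct difference over 1. Among the 599 genes higher with *FvVND4c*, the empty vectors were called apart for 39 (6.51%), of which 21 were lower in the *FvMYB46* experiment, as in the direct comparison, and 18 were higher. Here 19 genes (3.17%) had an empty-vector difference at least as large as the direct one and of the same sign. The empty-vector difference was under 1 on the log2 scale and not called for 909 of the genes higher with *FvMYB46* (76.6%) and 496 of those higher with *FvVND4c* (82.8%), while over all genes tested this held for 94.1%. Past 1 on the log2 scale, whatever their p, were the empty-vector differences of 278 (23.4%) and 103 (17.2%) genes of these lists and of 5.88% of all genes tested.

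**Figure D2:**
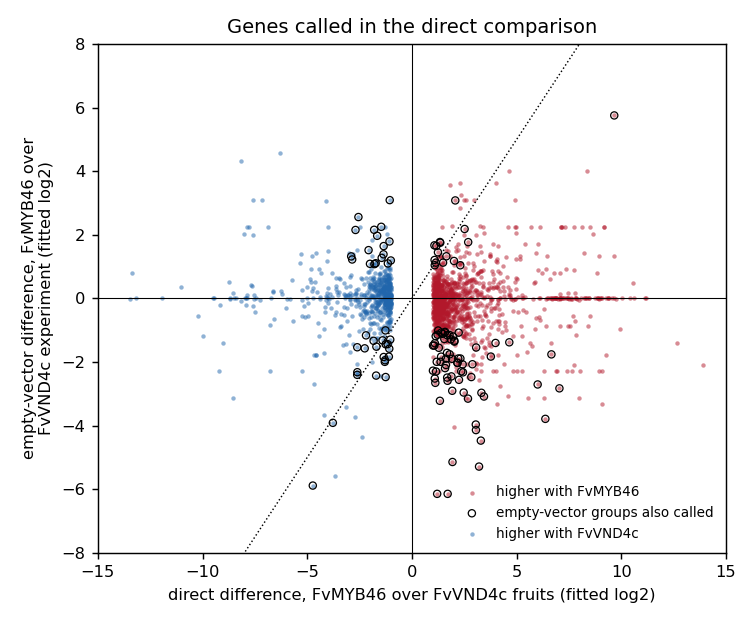
Fitted log2 difference between the overexpressing fruits (x axis) against that between the empty-vector groups (y axis), both as *FvMYB46* over *FvVND4c* experiment, for the 1786 called genes. Points are genes, circles mark the 121 genes whose empty-vector groups were also called apart, and the dotted line marks equal differences, which few genes reach. Genes with no or few counts in a group have fitted values that are no bound.

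Comparing each gene with the 4 empty-vector libraries together showed on which side the difference lay. Of the 1187 genes higher with *FvMYB46*, 1139 (96%) had both *FvMYB46* libraries above all 4 empty-vector libraries, as did 24.5% of all genes tested. In 786 of the 1187 (66.2%; 14.9% of all genes tested) the *FvVND4c* libraries lay among the empty-vector libraries, with medians of 6.02 CPM with *FvMYB46*, 1.19 CPM with *FvVND4c*, and 1.13 and 1.30 CPM with the empty vectors of the *FvMYB46* and *FvVND4c* experiments. Among means neither both above nor both below all 4, so a single library may lie outside. For these transcripts, both libraries stood above the empty vectors only with *FvMYB46*. In a further 221 genes (18.6%; 8.24% of all genes tested) both constructs lay above all empty-vector libraries, and *FvMYB46* lay higher, at a median of 21.1 CPM against 5.25 CPM with *FvVND4c* and 1.11 and 1.29 CPM with the empty vectors. The remaining sizeable class, 132 genes (11.1%; 1.42% of all genes tested), had *FvMYB46* above and *FvVND4c* below all 4 empty-vector libraries, at medians of 5.38 and 1.21 CPM around empty-vector medians of 2.12 and 2.19 CPM. Both *FvMYB46* libraries lay below the empty-vector libraries in 2 genes and neither above nor below in 46.

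The genes higher with *FvVND4c* were divided otherwise. Both *FvVND4c* libraries lay above all 4 empty-vector libraries in 397 of the 599 (66.3%; 13.8% of all genes tested), and both *FvMYB46* libraries lay below all 4 in 296 (49.4%; 20.5% of all genes tested). A class of 193 genes (32.2%, and 4.4% of all genes tested) had both *FvVND4c* libraries above the empty-vector libraries and the *FvMYB46* libraries among them. Medians of the class were 8.93 CPM with *FvVND4c* and 0.978 CPM with *FvMYB46*, and 1.22 and 1.03 CPM with the empty vectors of the *FvVND4c* and *FvMYB46* experiments. This class had the widest gap of the 4 largest classes, with a median log2 difference of -2.88. In 165 genes (27.5%; 12.8% of all genes tested) the difference came from the other side: *FvVND4c* lay among the empty-vector libraries at a median of 17.8 CPM, the empty vectors were at 17.8 and 17.3 CPM, and *FvMYB46* lay below them at 7.06 CPM. Another 109 genes (18.2%; 1.2% of all genes tested) lay above the empty vectors with *FvVND4c* and below them with *FvMYB46*, at medians of 52.5 and 9.57 CPM around empty-vector medians of 16.5 and 16.3 CPM. Both constructs lay above the empty vectors in 95 genes (15.9%; 8.24% of all genes tested), at medians of 43.3 CPM with *FvVND4c* and 7.02 CPM with *FvMYB46* over 1.42 and 1.27 CPM. Where both constructs stood above all empty-vector libraries, 221 genes thus lay further above with *FvMYB46* and 95 further above with *FvVND4c*. These classes are read from ranges of 2 and 4 libraries without a test, and the genes were selected for being high or low in the overexpression libraries.

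**Figure D3:**
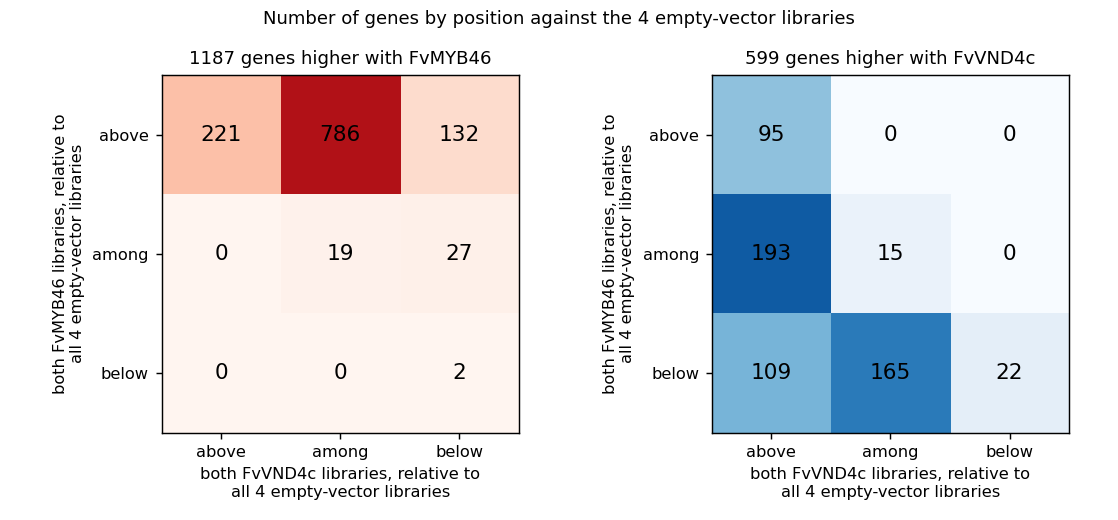
Number of called genes by the position of both *FvMYB46* libraries (rows) and both *FvVND4c* libraries (columns) relative to all 4 empty-vector libraries, for the 1187 genes higher with *FvMYB46* (left) and the 599 higher with *FvVND4c* (right). The left panel is dominated by 786 genes above with *FvMYB46* and among with *FvVND4c*, and the right panel divides over 193, 165, 109 and 95 genes. Among means neither both above nor both below.

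Some transcripts were found with only 1 of the constructs. A total of 96 genes had no count in either *FvVND4c* library and a mean of at least 1 CPM with *FvMYB46*, with counts in both *FvMYB46* libraries. Of these, 89 had enough counts for the test, and all 89 were called, as were 9.52% of all genes tested. The genes were picked by their counts in the same libraries, so these calls follow from that choice and are no support. The level of the 96 genes with *FvMYB46* was mostly low, at a median of 2.42 CPM and a highest value of 167 CPM. No count was seen in any of the 4 empty-vector libraries for 54 of the 96 genes (56.2%), and at most 3 counts over the 4 libraries for 78 (81.2%). The highest mean over the 4 empty-vector libraries was 0.288 CPM, and none of the 96 averaged 1 CPM or more in either empty-vector group. In the other direction, 21 genes had no count with *FvMYB46* and at least 1 CPM with *FvVND4c*, at a median of 3.13 CPM and a highest value of 122 CPM. No count with an empty vector was seen for 9 of the 21 genes (42.9%), and at most 3 counts over the 4 libraries for 17 (81%). The genes of both lists were therefore near or at zero without a construct in both experiments, at the depth of these libraries. When up to 3 counts over both libraries were allowed, the lists held 211 and 47 genes, and at a minimum of 5 CPM they held 26 and 7. The list of 21 grew to 34 genes without FvMYB46 replicate 1 and to 32 without FvMYB46 replicate 2.

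The largest differences by the fitted fold change, given by identifier, were of this kind. All genes given by identifier had enough counts for the test only through the group where they were high. They were also chosen among called genes. That their adjusted p in the direct comparison passed, here and below, follows from this choice and is no support. FvH4_7g11140, on chromosome 7 from 10418910 to 10419541 on the plus strand (F. vesca v4.0.a2, as are all positions here), had 160 and 174 CPM in the *FvMYB46* libraries, 1877 and 2050 counts, and no count in either *FvVND4c* library. The empty-vector libraries held 4 and 1 counts in the *FvVND4c* experiment and 1 and 0 counts in the *FvMYB46* experiment. Only the *FvMYB46* fruits thus carried this transcript at more than a few counts. Its mean of 167 ± 10.1 CPM (SD, n = 2) was 1145-fold the level of 3 counts over the *FvVND4c* group (adjusted p = 2.09e-08 from edgeR). The ratio of the groups had a 95% exact binomial lower limit of 931, which covers counting error only.

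FvH4_2g18610, on chromosome 2 from 15941491 to 15941968 on the plus strand, had 69.3 and 68.4 CPM with *FvMYB46* and no count with *FvVND4c*. Its empty-vector libraries held 2 and 1 counts in the *FvVND4c* experiment and 1 and 0 in the *FvMYB46* experiment, so it followed the same pattern at a lower level. The mean of 68.9 ± 0.626 CPM (SD, n = 2) was 472-fold the level of 3 counts over the *FvVND4c* group (adjusted p = 5.14e-08 from edgeR). The lower limit for the ratio was 384.

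Higher with *FvVND4c* was FvH4_5g00350, on chromosome 5 from 244141 to 245394 on the minus strand, with 155 and 89.4 CPM in the *FvVND4c* libraries, 1764 and 820 counts, and no count with *FvMYB46*. Each empty-vector group held 1 count over its 2 libraries. The *FvVND4c* libraries differed between themselves, at 122 ± 46.2 CPM (SD, n = 2). Their mean was 985-fold the level of 3 counts over the *FvMYB46* group, with a lower limit of 800 for the ratio (adjusted p = 6.03e-07 from edgeR). FvH4_1g25140, on chromosome 1 from 16936762 to 16942151 on the minus strand, had 126 and 104 CPM with *FvVND4c*, no count with *FvMYB46* and, with the empty vectors, 1 and 0 counts beside *FvVND4c* and 1 and 1 beside *FvMYB46*. It was thus confined to the *FvVND4c* fruits at more than 1 count among these 8 libraries, with a mean of 115 ± 15.2 CPM (SD, n = 2). That mean was 911-fold the level of 3 counts over the *FvMYB46* group, with a lower limit of 740 for the ratio (adjusted p = 2.54e-08 from edgeR).

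**Figure D4:**
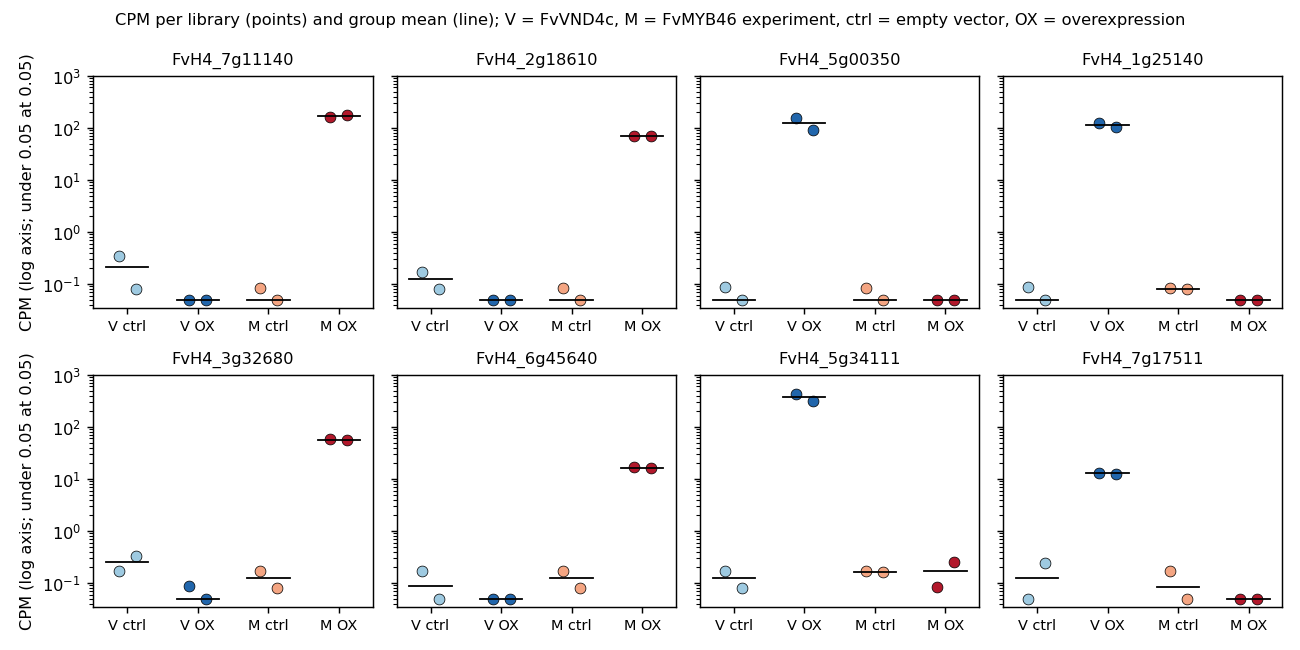
CPM of the 8 genes given by identifier in each library (points, log axis, values under 0.05 drawn at 0.05) with the mean of each group (line), for the empty-vector (ctrl) and overexpression (OX) groups of the *FvVND4c* (V) and *FvMYB46* (M) experiments. In each gene 1 overexpression group lies between 12.5 and 427 CPM and the other 3 groups lie near or at 0.

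To take the empty vectors into the test, the response to *FvMYB46* was compared with the response to *FvVND4c* in 1 fit. Each response was the overexpression group against the empty-vector group of its experiment, without pairing of libraries. This difference of responses was called for 1099 genes that rose more or fell less with *FvMYB46* (5.86%) and for 707 genes that rose more or fell less with *FvVND4c* (3.77%). It uses the overexpression libraries of the direct comparison as well as the empty-vector libraries, so the comparisons are not independent and are given side by side. The first count was 728 without FvVND4c control replicate 1 and 730 without FvMYB46 replicate 2. The genes with the largest difference of responses, among those called alike in both comparisons and with empty vectors within 1 on the log2 scale, were FvH4_3g32680 and FvH4_6g45640 toward *FvMYB46* and FvH4_5g34111 and FvH4_7g17511 toward *FvVND4c*, besides those already given.

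FvH4_3g32680, on chromosome 3 from 27977543 to 27978863 on the plus strand, had 58.1 and 56.4 CPM with *FvMYB46* and 1 and 0 counts with *FvVND4c*. The empty-vector libraries held 2 and 4 counts in the *FvVND4c* experiment and 2 and 1 in the *FvMYB46* experiment. Its transcripts were thus near the floor in every group but the *FvMYB46* fruits. The ratio of *FvMYB46* to *FvVND4c* was 1177, with exact binomial 95% bounds of 211 and 46527 (counting error alone), and the difference of responses was 10.89 on the log2 scale (standard error 1.14, adjusted p = 0.000123 from edgeR). FvH4_6g45640, on chromosome 6 from 34988167 to 34992824 on the minus strand, had 16.7 and 15.96 CPM with *FvMYB46*, no count with *FvVND4c* and at most 2 counts in any empty-vector library. Its mean was 112-fold the level of 3 counts over the *FvVND4c* group (lower limit for the ratio 90.6, adjusted p = 4.38e-06 from edgeR). The difference of responses had an adjusted p of 0.0149, which became 1.0 without FvVND4c control replicate 1.

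FvH4_5g34111, on chromosome 5 from 24789468 to 24797533 on the plus strand, reached the highest level of these 8 genes, at 427 and 319 CPM with *FvVND4c* against 0.085 and 0.255 CPM with *FvMYB46*. The empty-vector libraries held 1 or 2 counts each, so the transcript was present in quantity in the *FvVND4c* fruits alone. The direct log2 difference was -11.01 (standard error 0.28, adjusted p = 3.76e-09 from edgeR) and the difference of responses was -11.36 (adjusted p = 0.00106 from edgeR). Its span overlaps that of another gene on the same strand, and reads of both could not be told apart. FvH4_7g17511, on chromosome 7 from 14845131 to 14847801 on the minus strand, had 13.1 and 12.5 CPM with *FvVND4c* and no count with *FvMYB46*, while the empty-vector libraries held 0 and 3 counts in the *FvVND4c* experiment and 2 and 0 in the *FvMYB46* experiment. Its mean with *FvVND4c*, 12.8 ± 0.373 CPM (SD, n = 2), was 101-fold the level of 3 counts over the *FvMYB46* group (lower limit for the ratio 81.3, adjusted p = 1.88e-05 from edgeR). Its difference of responses had an adjusted p of 0.0365, and of 0.0533 and 0.0719 without FvVND4c replicates 1 and 2, 1.0 without FvMYB46 control replicate 1, and 0.076 and 0.0751 without FvMYB46 replicates 1 and 2.

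Genes that differed between the fruits lay on all 7 chromosomes. The share of tested genes higher with *FvMYB46* ran from 5.68% on chromosome 7 to 7.2% on chromosome 4, and the share higher with *FvVND4c* from 2.57% on chromosome 7 to 3.7% on chromosome 5. Locally, 17 runs of at least 3 consecutive tested genes were called in the same direction, 10 of them higher with *FvMYB46* and 7 higher with *FvVND4c*. They held 58 genes, and 6 runs reached 4 genes or more. The number of runs was 11 without FvVND4c replicate 2, 9 without FvMYB46 replicate 1, 8 without FvMYB46 replicate 2 and 7 with DESeq2. Where the spans of neighbours overlap, their counts may not be independent.

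The longest run held 5 genes on the plus strand of chromosome 1, from 11431895 to 11489620, all higher with *FvMYB46*. Along the run the mean CPM with *FvMYB46* was 1124, 1.06, 187, 74.2 and 11.1, beside 416, 0, 1.41, 12.9 and 2.64 with *FvVND4c*. With the empty vectors the genes stood near the *FvVND4c* fruits or below them, at 456, 0, 2.39, 15.1 and 2.2 CPM in the *FvVND4c* experiment and 389, 0, 0.333, 9.65 and 1.69 CPM in the *FvMYB46* experiment. The gene in the middle of the run showed the widest gap, with 185 and 189 CPM in the *FvMYB46* libraries against 1.40 and 1.42 CPM in the *FvVND4c* libraries. It is also the only gene of the run whose empty vectors were called apart, with a log2 difference of -2.83, lower in the *FvMYB46* experiment (adjusted p = 0.00489 from edgeR), opposite to the direct difference.

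A run of 4 genes on the plus strand of chromosome 5, from 24789468 to 24839109, was higher with *FvVND4c* and begins with FvH4_5g34111. Mean CPM with *FvVND4c* was 373, 1.26, 88.7 and 10.8 along the run, against 0.17, 0.042, 1.36 and 0.298 with *FvMYB46*. The empty-vector means were 0.127, 0.086, 8.61 and 0.338 CPM in the *FvVND4c* experiment and 0.164, 0.250, 7.05 and 0.286 CPM in the *FvMYB46* experiment. All 4 transcripts thus stood above the empty vectors with *FvVND4c*, and the third also stood below them with *FvMYB46*, at 1.11 and 1.61 CPM where the 4 empty-vector libraries had 3.12 to 10.98 CPM. In 2 of the 4 genes the span overlaps another gene.

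On chromosome 6, from 8136461 to 8155584, 4 genes were higher with *FvVND4c*. In the first of these, *FvVND4c* lay above the empty-vector libraries, at 1.23 and 1.85 CPM, and *FvMYB46* lay below them, at 0.256 and 0.34 CPM, where the 4 libraries had 0.48 to 1.12 CPM. Over the last 3 of these genes, means were 12.1, 34.0 and 42.8 CPM with *FvVND4c*, 5.87, 14.2 and 14.7 CPM with *FvMYB46*, 0.123, 5.003 and 0.127 CPM in the empty-vector group of the *FvVND4c* experiment, and 0.042, 4.41 and 0.124 CPM with that of the *FvMYB46* experiment. These 3 of the 4 neighbours stood above the empty vectors with both factors and further above with *FvVND4c*. A run of 3 genes on chromosome 6, from 34978463 to 34999487, which contains FvH4_6g45640, was above the empty vectors with *FvMYB46* only. Its means were 9.74, 16.3 and 6.08 CPM with *FvMYB46*, against 1.41, 0 and 0.339 CPM with *FvVND4c*. Empty-vector means were 1.27, 0.086 and 0.587 CPM in the *FvVND4c* experiment and 1.52, 0.124 and 0.747 CPM in the *FvMYB46* experiment. In this run 2 of the spans overlap another gene.

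Runs in which the empty vectors were called apart were found as well, and the called empty-vector differences ran against the direct ones. In other runs, empty-vector log2 differences over 1 in size that were not called ran in both directions. On chromosome 6, from 1712884 to 1743492, 3 genes on the plus strand were higher with *FvMYB46*, at 473, 63.2 and 183 CPM against 105, 13.4 and 57.2 CPM with *FvVND4c*. The empty vectors stood at 41.6, 5.28 and 5.89 CPM in the *FvMYB46* experiment and at 170, 11.2 and 33.2 CPM in the *FvVND4c* experiment, and each of the 3 was called apart, with log2 differences of -2.03, -1.08 and -2.49. So the *FvMYB46* fruits were highest although their own empty vector was lowest. On chromosome 5, from 27023148 to 27035766, 4 genes on the minus strand were higher with *FvVND4c*, at 31.5, 12.1, 10.3 and 113 CPM against 14.9, 5.78, 3.70 and 38.4 CPM with *FvMYB46*. There the empty vector was higher in the *FvMYB46* experiment in each gene, and 3 of the 4 were called apart, with log2 differences of 1.79, 3.09 and 2.25. Levels in the *FvMYB46* fruits were near those of the empty vector of the *FvVND4c* experiment in the first gene. The libraries there had 13.3 and 16.6 CPM with *FvMYB46* and 11.02 and 13.9 CPM with that empty vector. In the second gene the *FvMYB46* fruits stood above the empty vectors of both experiments.

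**Figure D5:**
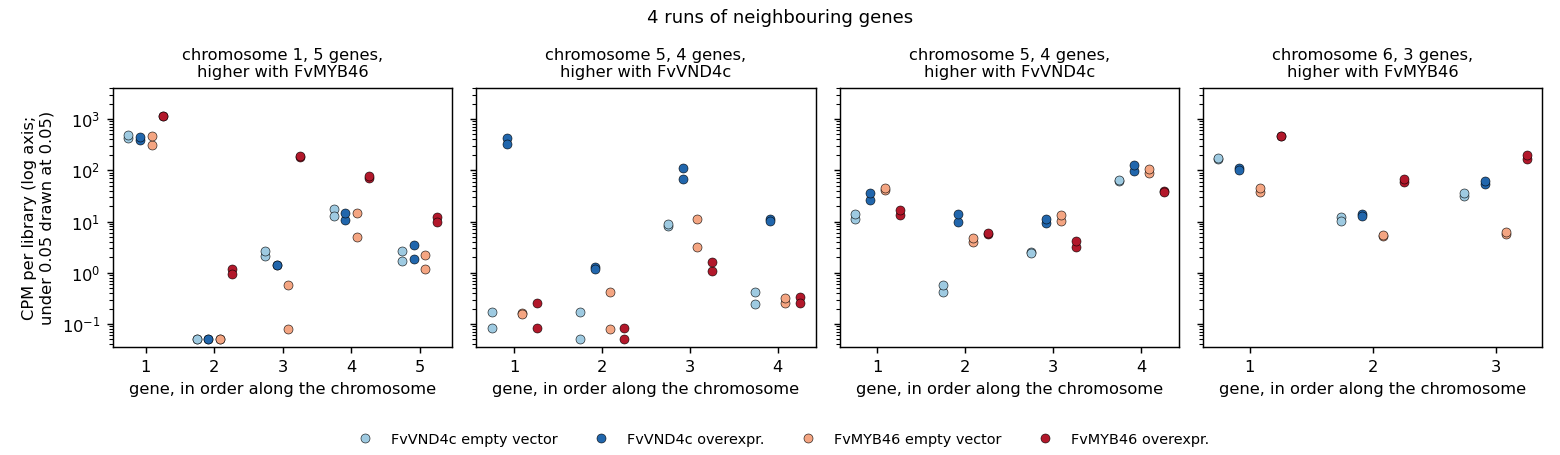
CPM per library (y axis, log scale, values under 0.05 drawn at 0.05) of the genes in 4 runs, in order along the chromosome (x axis), coloured by group. In the run of 5 genes and the first run of 4 the empty-vector groups lie together, except in gene 3 of the run of 5, and 1 construct stands apart, with both doing so on opposite sides in gene 3 of the run of 4, whereas in the second run of 4 and the run of 3 the empty vectors of both experiments are themselves separated.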

How the data were processed

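Per the methods, RNA-seq libraries were made with the NEBNext Ultra II RNA kit and sequenced on a NovaSeq instrument. The deposited count files hold whole counts for each gene. Per the submitters' notes and the methods, the authors trimmed reads with fastp 0.20.1, mapped them to genome v4.0.a2 by HISAT2 2.2.1, removed duplicates by SAMtools 1.9 and counted with featureCounts 2.0.3. As no source used here states the strand setting, reads of overlapping genes (3972 of 34009) are uncertain. Deposited TPM values of the same libraries, for 17698 genes, served only as an alternative. Counts were filtered with filterByExpr, scaled by TMM and tested with edgeR 4.0.16 (R 4.3.3) in 1 fit of 8 libraries and 4 groups without covariates. Comparisons were *FvMYB46* against *FvVND4c* fruits, the empty-vector groups against each other, and the difference of responses. CPM use TMM-scaled totals, and standard errors are the log2 difference over the square root of F. A group without counts was set to 3 counts for a fold.

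Genes are given by identifier, the 2 largest in each direction by fitted log2 difference among called genes with separate groups whose overexpression libraries averaged 1 CPM or more, first for the direct comparison and then for the difference of responses where both were called alike, the empty-vector difference was under 1 and the gene was not yet given. Runs described gene by gene were picked after their values were seen. The gene table held 24946 genes of another assembly. With 2 libraries against 2, an exact permutation test cannot go below 0.333, so none was made. Alternatives were DESeq2 1.42.0, limma 3.58.1 on log2 TPM, other thresholds, scalings, filters and sample sets, a replicate block, and leaving out each library. The comparison, its lists and rules were chosen with earlier results of these data known.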

Additional observations from a re-analysis of the deposited data

Results flagged for a closer look

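The responses to the constructs, each taken relative to its own empty-vector group, differed by the test of the difference itself in 1099 genes that rose more or fell less with *FvMYB46* and in 707 that rose more or fell less with *FvVND4c*. Of the 8 genes given by identifier, 7 passed this test (edgeR, adjusted p under 0.05). For FvH4_3g32680, FvH4_6g45640, FvH4_5g34111 and FvH4_7g17511 this was fixed in advance, as they were chosen among genes called in it. The others were chosen by the direct comparison, which uses the same overexpression libraries, so the count is no support. On the log2 scale the difference of responses was 16.01 for FvH4_7g11140 (adjusted p = 0.000263 from edgeR), 14.04 for FvH4_2g18610 (adjusted p = 0.000766 from edgeR), 10.89 for FvH4_3g32680 (adjusted p = 0.000123 from edgeR) and 10.07 for FvH4_6g45640 (adjusted p = 0.0149 from edgeR). Toward *FvVND4c* it was -14.19 for FvH4_1g25140 (adjusted p = 0.00248 from edgeR), -11.36 for FvH4_5g34111 (adjusted p = 0.00106 from edgeR) and -9.65 for FvH4_7g17511 (adjusted p = 0.0365 from edgeR). FvH4_5g00350 had -13.43 and did not pass (adjusted p = 0.0995 from edgeR). These fitted values depend on groups with 0 to 6 counts and are no bounds.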

How the results depend on the processing

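With 2 libraries a group, depth limits calls among genes under 1 CPM, and zeros hold only down to 3 counts. Of the 1786 genes, between 49.8% (glmTreat) and 100% were called again under the alternatives, and none in the opposite direction. DESeq2 gave 872 and 546 genes and RLE scaling 1170 and 626, higher with *FvMYB46* and *FvVND4c*. The median log2 difference over all genes was 0.03 with TMM and 0.01 with RLE scaling. The 8 genes given by identifier were called in the direct comparison under every alternative that could test them. In the difference of responses FvH4_7g17511 lost its call under 7 alternatives, among them glmTreat, no filter, and leaving out any of 5 libraries, FvH4_6g45640 lost it under 1, and FvH4_5g00350 gained it under 8; the cause was not tested. Beside the values that follow, the alternatives moved no count by over 1.5 times.

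Without a fold threshold, 1972 and 1545 genes were higher with *FvMYB46* and *FvVND4c*, 314 and 504 were higher and lower in the empty vector of the *FvMYB46* experiment, 1323 responded further toward *FvVND4c*, 74 runs were found, 92.5% and 43.6% of the genes higher with *FvMYB46* and *FvVND4c* had that construct above all empty-vector libraries, and the empty vectors were called apart for 11.2%. The same quantities under glmTreat, in that order, were 600 and 290, 24 and 66, 431 and 233 for both directions of the responses, 7 runs, 98.5% and 87.2%, and 2.70%. With at least 10 counts in every library, which removes genes without counts in a group, 562 and 394 genes were called, with 5 runs, 56.6% of the *FvVND4c* list above the empty vectors and 8.79% with empty vectors apart. Without a filter there were 11 runs and 5.6% with empty vectors apart. With unadjusted p in edgeR, the empty vectors gave 275 and 572 genes, the shares above the empty vectors were 91.1% and 60.5%, and 13.2% had empty vectors apart. DESeq2 gave 97.1% and 7 runs, and with unadjusted p 217 genes higher in the empty vector of the *FvMYB46* experiment, 94.1% and 62.3% above the empty vectors, 11 runs and 10.1% with empty vectors apart. In limma on log2(TPM + 1), whose table lists 79.9% of the genes higher with *FvMYB46*, 385 genes were higher with *FvVND4c*, 71 were higher in the empty vector of the *FvMYB46* experiment, 451 responded further toward *FvVND4c*, 71.4% of the *FvVND4c* list lay above the empty vectors and 7 runs were found, and with a pseudocount of 0.1 the values were 434 responses toward *FvVND4c*, 94.0% of the *FvMYB46* list above, 9 runs and 9.28% with empty vectors apart. The 4 overexpression libraries alone gave 94.4% of the *FvMYB46* list above the empty vectors, and the 4 empty-vector libraries alone gave 68 and 160 genes. An empty-vector log2 difference over 1 without a p threshold was found for 21.3% of called genes. Only 6 runs reached 4 genes. Genes without counts with *FvVND4c* or *FvMYB46* numbered 211 and 47 with up to 3 counts allowed, and 26 and 7 at a mean of 5 CPM.

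Leaving out each library gave 888 to 1340 genes higher with *FvMYB46* and 502 to 675 higher with *FvVND4c*, 53 to 274 and 131 to 602 for the empty vectors, 728 to 1604 and 509 to 906 for the responses, 84.7% to 98.4% and 66.6% to 73.8% above the empty vectors, 8 to 18 runs, 3.59% to 9.75% with empty vectors apart, and 92 to 143 and 19 to 34 genes without counts with *FvVND4c* and *FvMYB46*. The lowest number of runs, 8, came without FvMYB46 replicate 2, the lowest number of responses toward *FvMYB46*, 728, without FvVND4c control replicate 1, and the highest number of genes without counts with *FvMYB46*, 34, without FvMYB46 replicate 1. With the replicate number as a block, 1246 and 625 genes were called, and 94.5% of the former lay above the empty vectors. Deviations of same-numbered libraries correlated at 0.0989 to 0.195 between groups, and with 2 numbers and no label of a shared batch the numbers were not taken as pairs.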
